A study of Mus musculus with 2 samples.

Results

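The NR4A and KLF transcription factors of this report are 8 genes, *Nr4a1*, *Nr4a2*, *Nr4a3*, *Klf2*, *Klf3*, *Klf4*, *Klf6* and *Klf13*. They were taken by symbol from the 31053 genes of the count tables, with earlier results of these data known. They were followed in adipose tissue macrophages (ATMs) of the epididymal fat of male C57/BL6 mice aged 8 to 12 weeks. The CD group had control chow with corn starch and 11% of its energy as fat. The HFD group had a high-fat diet with sucrose and 58% of its energy as fat, given overnight. There was no transgene or deletion in either group. In each diet the fat of 3 mice was enzymatically digested, and ATMs were sorted by flow cytometry as CD45+Lin-Ly6Clow/-F4/80+ cells. The ATMs of the 3 mice were pooled and measured as 1 droplet-based single-cell RNA library. It counts unique molecular identifiers (UMIs) at the 3' end of transcripts. The pool hides the spread between mice, so a difference between diets here is a difference between 2 libraries, and no test between diets was made.

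NR4A proteins are orphan nuclear receptors that bind DNA without a known circulating hormone, and their genes are immediate early genes, switched on within minutes by calcium, cyclic AMP, lipid or inflammatory signals. *Nr4a1* (Nur77) is needed for Ly6Clow monocytes. KLF proteins are zinc finger factors that bind CACCC and GC-rich DNA. *Klf2* and *Klf4* restrain inflammatory gene expression in myeloid cells and endothelium, *Klf4* is needed for monocyte development, *Klf6* favours inflammatory macrophage programmes, *Klf3* is mainly a repressor, and *Klf13* was first studied in T cells.

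The genes lie apart in the genome (GRCm38, the assembly of mm10). *Nr4a1* (ENSMUSG00000023034) is on chromosome 15 from 101254269 to 101274795, *Nr4a2* (ENSMUSG00000026826) on chromosome 2 from 57106830 to 57124003, and *Nr4a3* (ENSMUSG00000028341) on chromosome 4 from 48045153 to 48086447. *Klf4* (ENSMUSG00000003032) shares chromosome 4, from 55527143 to 55532466. *Klf2* (ENSMUSG00000055148) is on chromosome 8 from 72319033 to 72321656, *Klf6* (ENSMUSG00000000078) on chromosome 13 from 5861482 to 5870394, *Klf3* (ENSMUSG00000029178) on chromosome 5 from 64803388 to 64832901, and *Klf13* (ENSMUSG00000052040) on chromosome 7 from 63886351 to 63938915. *Klf3* and *Klf13* overlap other annotated transcripts, *Klf3* 1 on its own strand, and how reads in such shared parts were counted is not given in the sources used here.

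The promoters of the NR4A genes are shown because these genes moved together between classes of cells, all being higher in Lyz1-high than in Lyve1+ cells. That of *Klf2* is shown as an example of a gene lower in Lyz1-high cells, as *Klf4*, not shown, was too. Each window runs from 250 bases before to 50 bases after the start in RefSeq (GRCm38.p6), read in the direction of the gene. Capitals mark TGACG or its reverse complement CGTCA, the core of the cyclic AMP response element (CRE), and, in *Klf2*, a MEF2 box. The windows are chr15:101266596-101266895 on the plus strand for *Nr4a1*, inside the gene as annotated above, chr2:57123954-57124253 on the minus strand for *Nr4a2*, chr4:48045055-48045354 on the plus strand for *Nr4a3* and chr8:72318812-72319111 on the plus strand for *Klf2*.
Nr4a1: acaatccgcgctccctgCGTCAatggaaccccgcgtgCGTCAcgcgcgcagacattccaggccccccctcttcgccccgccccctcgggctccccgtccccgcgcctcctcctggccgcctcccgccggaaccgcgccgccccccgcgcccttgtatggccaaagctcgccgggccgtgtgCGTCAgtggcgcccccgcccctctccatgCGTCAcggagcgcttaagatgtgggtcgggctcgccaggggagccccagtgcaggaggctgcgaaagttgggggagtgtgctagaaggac
Nr4a2: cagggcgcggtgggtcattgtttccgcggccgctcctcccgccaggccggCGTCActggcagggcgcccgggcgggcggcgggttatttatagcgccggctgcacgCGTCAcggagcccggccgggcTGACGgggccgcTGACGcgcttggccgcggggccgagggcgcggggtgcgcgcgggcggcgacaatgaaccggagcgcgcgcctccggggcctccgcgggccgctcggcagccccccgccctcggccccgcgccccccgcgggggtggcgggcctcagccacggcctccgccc
Nr4a3: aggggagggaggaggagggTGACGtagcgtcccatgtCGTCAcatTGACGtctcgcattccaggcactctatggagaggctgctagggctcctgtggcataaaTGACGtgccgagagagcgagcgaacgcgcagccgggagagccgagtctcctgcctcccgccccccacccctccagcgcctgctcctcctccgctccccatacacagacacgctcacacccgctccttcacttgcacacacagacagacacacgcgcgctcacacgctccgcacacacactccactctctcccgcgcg
Klf2: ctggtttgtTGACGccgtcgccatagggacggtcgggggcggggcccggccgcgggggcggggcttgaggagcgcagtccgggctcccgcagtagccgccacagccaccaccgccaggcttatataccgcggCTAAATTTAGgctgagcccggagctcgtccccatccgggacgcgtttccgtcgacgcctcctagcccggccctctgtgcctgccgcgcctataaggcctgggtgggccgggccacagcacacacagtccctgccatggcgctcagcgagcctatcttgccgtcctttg

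Each NR4A window held 4 CRE cores, a number reached by 76 of the 32851 promoter windows in the table (0.231%). At least 1 core was in the windows of 7 of the 8 genes, all but *Klf6*, against 20.8% of all windows. The whole CRE, TGACGTCA, which contains the core, was in none of the 8 windows and in 1.79% of all. The MEF2 box was in the *Klf2* window alone of the 8 and in 0.557% of all windows. The GC box GGGCGG was in all 8 windows, against 35.7% of all, and CACCC in 5 of 8, against 57.5%. NBRE, AAAGGTCA, the DNA element that NR4A monomers bind, was in none of the 8 windows and in 1.51% of all, and the CArG box in none and in 1.63%. The number 4 was taken from the NR4A windows, which are among the 76. G and C made up 72.3% of the *Nr4a1*, 81.7% of the *Nr4a2* and 64.7% of the *Nr4a3* window. Over the 8 windows they made up 63 to 81.7%. All windows of the table were compared, not windows matched for G and C, and the part of base content was not tested. Motifs were read on both strands, and such a match of letters is a description of the window.

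Depth differed between the libraries: 15003119 UMIs over 4459 barcodes were counted in CD, and 9164686 over 3163 in HFD. Cells with 200 to 3500 genes and at most 10% of UMIs from mitochondrial (mt-) genes were kept, which left 2364 in CD (median 4491 UMIs) and 2021 in HFD (median 2792 UMIs). The limit on mt- UMIs removed the most, 2059 CD and 1132 HFD barcodes. Of the barcode sequences, 14 were in both libraries and 7 were kept in both. All 10 macrophage markers had UMIs in both libraries, and their summed level was 12684 CPM in CD and 8085 CPM in HFD. The T cell and NK list had UMIs for 4 of 6 genes in CD (34 UMIs) and 2 of 6 in HFD (7 UMIs), with *Cd3e* and *Ncr1* at 0 in both. The neutrophil list had UMIs for 4 of 5 genes in CD (191 UMIs) and 2 of 5 in HFD (63 UMIs), with *Ly6g* at 0 in both. Larger sums came from the dendritic cell list, 1803 UMIs in CD and 669 in HFD, and the stromal list, 902 and 35 UMIs. At least 2 UMIs of a list other than that of macrophages were in 365 CD (15.4%) and 110 HFD cells (5.44%). They are called cells of other types below, which is the name of this rule and not a typing of each cell.

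The kept cells were read in 6 overlapping classes, set by UMIs of a marker gene. In none of the 6 were 43 CD (1.82%) and 272 HFD cells (13.5%). *Timd4* and *Lyve1* mark long-resident ATMs, and 368 CD and 72 HFD cells had a *Timd4* UMI (Timd4+) and 1172 and 415 a *Lyve1* UMI (Lyve1+). *Folr2* without *Lyve1* (Folr2+Lyve1-) was seen in 872 CD and 581 HFD cells. *Ccr2*, the chemokine receptor of incoming monocytes, was seen in 1326 CD and 1131 HFD cells (Ccr2+), at least 10 UMIs of *Lyz1* in 555 and 672 (Lyz1-high), and *Plac8*, a monocyte gene, in 42 and 73 (Plac8+). The dendritic cell list, which holds *Cd209a*, summed to 218 CPM in Timd4+ and 177 CPM in Lyve1+ cells of CD, against 43.9 CPM in Lyz1-high cells. Resident ATMs may thus be among the cells of other types. Levels are UMIs of a gene summed over the cells of a class and divided by all UMIs of those cells, scaled to counts per a common library total (CPM), with 95% Poisson intervals. Ratios are log2 ratios of CPM with 95% conditional binomial intervals. All intervals cover counting error only. A gene was counted as past 1.5-fold, in either direction, among genes with at least 100 UMIs in the 2 groups compared.

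None of the 8 genes was past 1.5-fold in HFD over CD in all kept cells, while 10.9% of the 8708 genes compared were. The median log2 ratio of the 8 was 0.24, against -0.01 over all genes compared. All 3 NR4A genes and *Klf3*, *Klf6* and *Klf13* were above 0, and *Klf2* and *Klf4* below.

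*Nr4a1* was at 678 CPM in CD (95% interval 663 to 693) and 855 CPM in HFD (835 to 876), a log2 ratio of 0.33 (0.29 to 0.38). Its ratio was above 0 in each of the 6 classes, from 0.12 (0.06 to 0.19) in Lyz1-high cells to 0.72 (0.45 to 0.99) in Plac8+ cells. In kept cells of none of the 6 classes it was at 672 CPM in CD and 1057 CPM in HFD (0.65, 0.28 to 1.04), past 1.5-fold. In Folr2+Lyve1- cells its ratio of 0.13 turned to -0.18 with at least 2 UMIs for the gate. *Nr4a2* (Nurr1), the receptor best known from dopamine neurons, was at 131 CPM in CD and 155 CPM in HFD, a log2 ratio of 0.24 (0.13 to 0.35). *Nr4a3* (Nor1) had the fewest UMIs of the 8, 553 in CD and 428 in HFD, with levels of 45.0 and 52.9 CPM and a log2 ratio of 0.23 (0.05 to 0.42). For *Nr4a3* this sign turned under 2 of 11 alternatives. With the HFD classes weighted to their CD shares of UMIs, its log2 ratio was -0.04, while *Nr4a1* was at 0.27 and *Nr4a2* at 0.12. For this weighting each cell entered only the first class it met, in the order Timd4+, Lyve1+, Folr2+, Plac8+, Lyz1-high, Ccr2+ and none. The Lyz1-high class then held 155 CD and 459 HFD cells. With each cell thinned to 800 UMIs, the ratio of *Nr4a3* was -0.09. The parts of class shares and depth in its sign were not tested.

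*Klf4* fell from 907 CPM in CD (890 to 924) to 747 CPM in HFD (728 to 766), a log2 ratio of -0.28 (-0.33 to -0.23). *Klf2* was at 1982 and 1833 CPM, with a ratio of -0.11 (-0.14 to -0.08). Both had their highest CD levels in Lyve1+ and Timd4+ cells, of which HFD held fewer, and with CD shares of the classes, the ratio of *Klf4* was -0.06 and that of *Klf2* turned to 0.09. *Klf6* was at 1117 CPM in CD and 1194 CPM in HFD (log2 ratio 0.10, 0.06 to 0.13). The ratios of the lower genes were larger: *Klf3* was at 105 and 144 CPM (0.45, 0.33 to 0.56) and *Klf13* at 116 and 148 CPM (0.34, 0.23 to 0.45). Weighted to CD shares, *Klf3* kept a ratio of 0.46 and *Klf13* of 0.33.

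*Klf3* was higher in HFD in every class, with CD levels within 101 to 112 CPM in all 6 and HFD levels from 125 to 160 CPM. Its ratio was 0.58 (0.35 to 0.81) in Lyve1+ cells, beside the limit of 1.5-fold, and 0.40 to 0.45 in Folr2+Lyve1-, Ccr2+ and Lyz1-high cells. In Timd4+ (0.15, -0.41 to 0.68) and Plac8+ cells (0.34, -0.33 to 1.03) the interval held 0. The CD intervals of *Klf3* overlapped between all 6 classes.

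**Figure D1:**
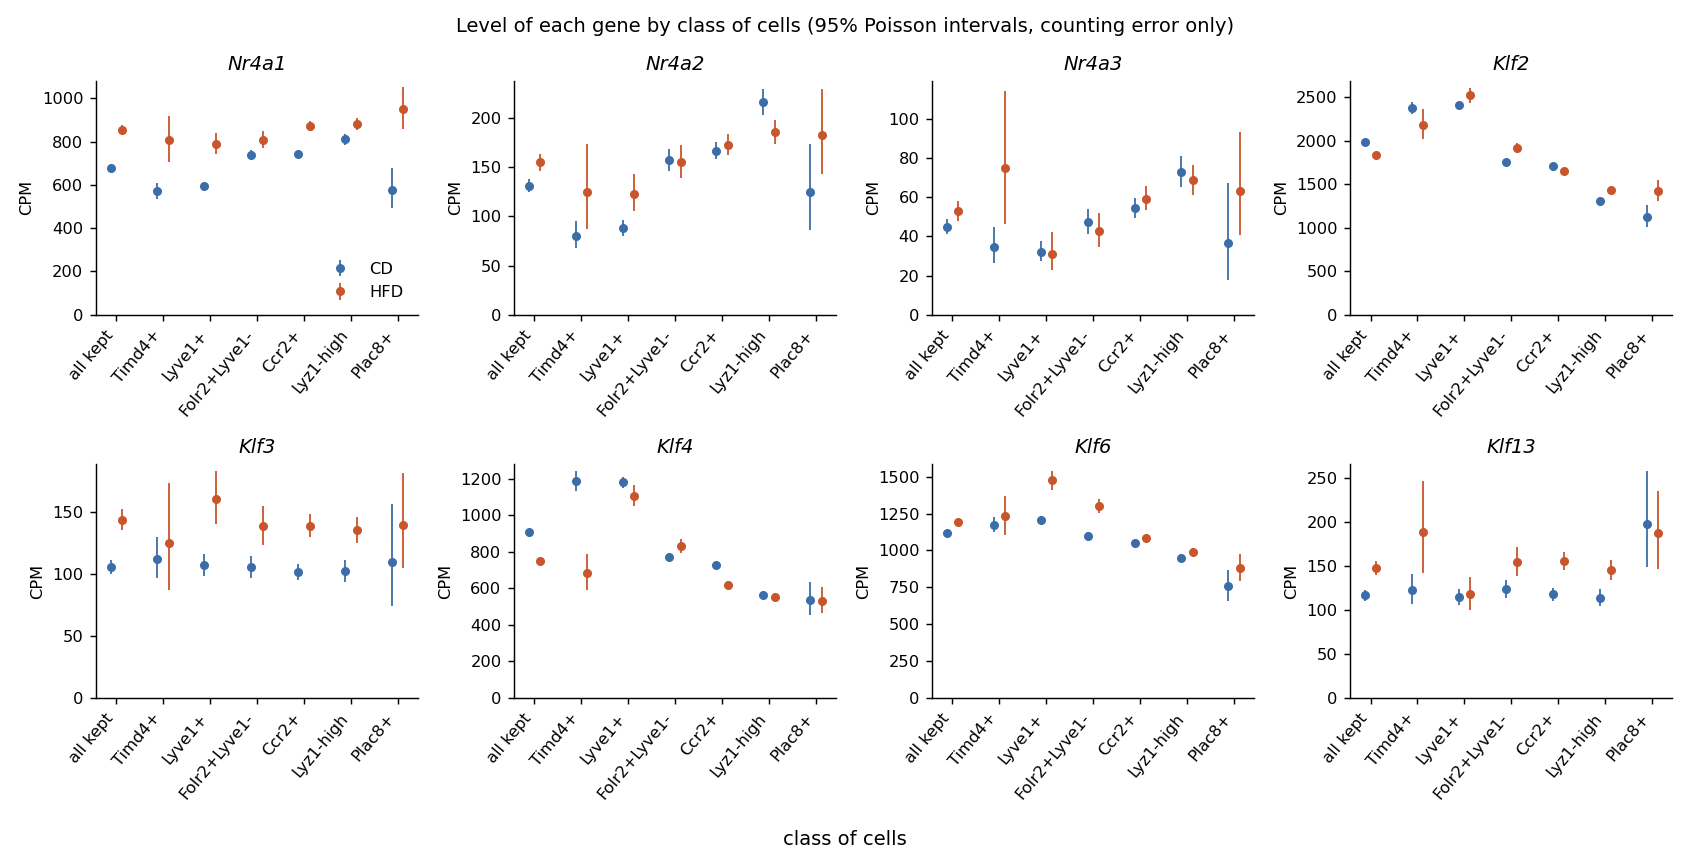
Levels in CPM (vertical axes, from 0) of the 8 genes in all kept cells and in the 6 overlapping classes (horizontal axes), CD in blue and HFD in orange; points are levels of summed UMIs and bars 95% Poisson intervals for counting error only. Among the classes of CD, *Klf2* and *Klf4* were highest in Timd4+ and Lyve1+ cells, at 2375 and 2408 CPM and at 1186 and 1179 CPM, while *Nr4a2* was highest in Lyz1-high cells, at 216 CPM.

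The order of the classes separated the NR4A genes from *Klf2*, *Klf4* and *Klf6*. In CD, *Nr4a2* stood at 80.3 CPM in Timd4+ cells, 87.7 in Lyve1+, 124 in Plac8+, 157 in Folr2+Lyve1-, 166 in Ccr2+ and 216 CPM (203 to 229) in Lyz1-high cells. Intervals of neighbours in this order overlapped, up to the step from Ccr2+ (158 to 175) to Lyz1-high cells. These 2 classes shared most cells, as 531 of the 555 Lyz1-high cells of CD were also Ccr2+. In HFD the order was Lyve1+ at 123 CPM, Timd4+ at 125, Folr2+Lyve1- at 155, Ccr2+ at 173, Plac8+ at 182 and Lyz1-high at 185 CPM (173 to 198), and all neighbours overlapped. *Nr4a3* in CD ran from 32.2 CPM in Lyve1+ and 34.5 CPM in Timd4+ cells, which overlapped, to 72.9 CPM in Lyz1-high cells, and in HFD it ran from 31.2 CPM in Lyve1+ to 68.5 CPM in Lyz1-high cells and 74.9 CPM (46.4 to 115) in the 72 Timd4+ cells.

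*Nr4a1* in CD was lowest in Timd4+ (573 CPM), Plac8+ (579) and Lyve1+ cells (593 CPM), which overlapped, then came Folr2+Lyve1- (738) and Ccr2+ cells (742 CPM), which overlapped, and Lyz1-high cells at 811 CPM (786 to 837). In HFD all classes lay within 791 to 951 CPM: Lyve1+ at 791, Timd4+ at 806, Folr2+Lyve1- at 809, Ccr2+ at 873, Lyz1-high at 882 and Plac8+ at 951 CPM. The spread between the classes was thus smaller in HFD than in CD, where the highest class was at 811 and the lowest at 573 CPM.

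*Klf2* in CD fell from 2408 CPM in Lyve1+ and 2375 in Timd4+ cells, which overlapped, to 1756 in Folr2+Lyve1- and 1705 in Ccr2+ cells, which overlapped, 1303 in Lyz1-high and 1128 CPM (1005 to 1261) in Plac8+ cells. Its HFD order was 2521 CPM in Lyve1+, 2186 in Timd4+, 1915 in Folr2+Lyve1-, 1658 in Ccr2+, 1439 in Lyz1-high and 1424 CPM in Plac8+ cells, of which the last 2 overlapped. *Klf4* in CD had the same 2 classes on top, 1186 CPM in Timd4+ and 1179 in Lyve1+ cells, then 770 in Folr2+Lyve1-, 726 in Ccr2+, 561 in Lyz1-high and 538 CPM in Plac8+ cells. In HFD the order of *Klf4* was 1107 CPM in Lyve1+, 832 in Folr2+Lyve1-, 681 in Timd4+, 619 in Ccr2+, 552 in Lyz1-high and 531 CPM in Plac8+ cells, so that the Timd4+ cells no longer stood beside the Lyve1+ cells. *Klf6* had a narrower range, from 1206 CPM in Lyve1+ to 758 CPM in Plac8+ cells in CD and from 1475 to 881 CPM in the same classes in HFD. *Klf13* was level over 5 classes of CD, at 114 to 124 CPM, and at 198 CPM (149 to 258) in the 42 Plac8+ cells. In HFD it was at 118 CPM in Lyve1+ cells and at 145 to 189 CPM in the other 5 classes.

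To compare the ends of this order without shared cells, Lyz1-high cells with no *Lyve1* UMI (432 CD and 618 HFD cells) were set against Lyve1+ cells with under 10 *Lyz1* UMIs (1049 and 361 cells) within each library. In CD, 5 of the 8 genes were past 1.5-fold, among 36.8% of the 6367 genes compared. In HFD, 5 of 8 were past it, among 37.2% of 4808 genes. The median log2 ratio over all genes compared was -0.17 in CD and -0.12 in HFD, so a gene with a ratio near these values moved like the rest. Relative to that median the ratios of *Klf3* and *Klf13* in CD changed sign, to 0.09 and 0.15.

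All NR4A genes were higher at the Lyz1-high end. *Nr4a2* was at 218 CPM in Lyz1-high and 57.6 CPM in Lyve1+ cells of CD, a log2 ratio of 1.92 (1.71 to 2.13), and at 185 and 90.3 CPM in HFD, a ratio of 1.04 (0.71 to 1.38). *Nr4a3* was at 71.5 and 20.7 CPM in CD (1.78, 1.43 to 2.15) and at 71.5 and 26.1 CPM in HFD (1.45, 0.85 to 2.12), where 24 UMIs lay in the Lyve1+ cells. *Nr4a1* was at 795 and 525 CPM in CD (0.60, 0.52 to 0.68) and at 884 and 754 CPM in HFD (0.23, 0.11 to 0.35), where it was not past 1.5-fold. In CD the call of *Nr4a1* lay at the limit and ended with each cell thinned to 800 UMIs, at 0.54, and without cells of other types or of both gates, at 0.53.

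*Klf2* and *Klf4* were lower at the Lyz1-high end by nearly the same ratio in both libraries. *Klf4* was at 515 CPM in Lyz1-high and 1295 CPM in Lyve1+ cells of CD (log2 ratio -1.33, -1.41 to -1.25) and at 549 and 1373 CPM in HFD (-1.32, -1.42 to -1.22). *Klf2* was at 1255 and 2646 CPM in CD (-1.08, -1.13 to -1.03) and at 1426 and 3004 CPM in HFD (-1.07, -1.14 to -1.01). *Klf6* was lower in both, at -0.45 (-0.52 to -0.39) in CD and past 1.5-fold at -0.75 (-0.84 to -0.66) in HFD. *Klf3* was at -0.08 (-0.28 to 0.11) in CD and -0.39 (-0.65 to -0.14) in HFD, and *Klf13* at -0.02 (-0.21 to 0.17) and 0.43 (0.12 to 0.75).

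**Figure D2:**
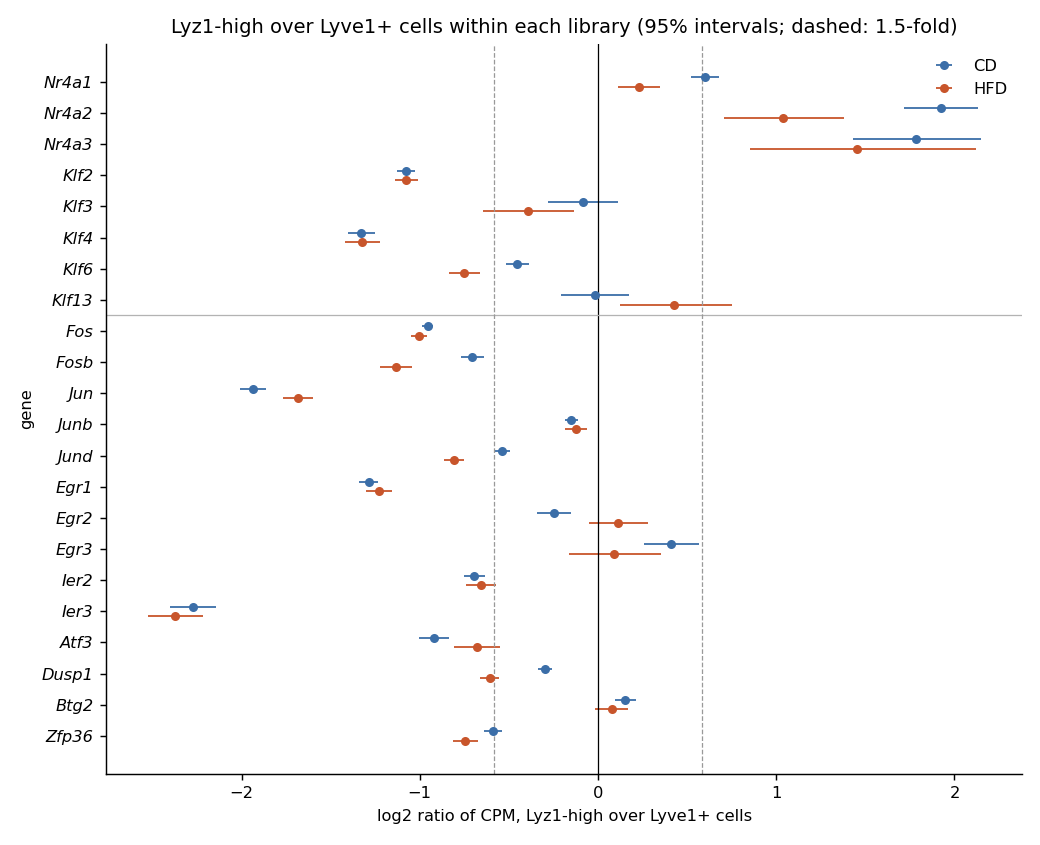
Log2 ratio of CPM in Lyz1-high over Lyve1+ cells (horizontal axis) within the CD (blue) and HFD (orange) library for the 8 genes, above the grey line, and the 14 immediate early genes, below it; bars are 95% intervals for counting error only and dashed lines mark 1.5-fold. *Nr4a2* and *Nr4a3* lie to the right in both libraries, at 1.92 and 1.78 in CD, while *Fos*, *Jun*, *Egr1* and *Ier3* lie to the left, at -0.96, -1.94, -1.29 and -2.27 in CD.

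Depth and mt- share moved with the same classes. The Lyz1-high cells of this comparison had a median of 7924 UMIs in CD and 6438 in HFD, the Lyve1+ cells 3800 and 2064, and the median mt- share was 2.48% and 2.1% against 5.0% and 4.95%. Among cells with 2000 to 3500 genes in CD (272 Lyz1-high and 137 Lyve1+ cells), the same 5 genes were past 1.5-fold, with ratios of 0.60 for *Nr4a1*, 1.74 for *Nr4a2*, 1.41 for *Nr4a3*, -0.87 for *Klf2* and -1.17 for *Klf4*. In HFD only 20 Lyve1+ cells were that deep, and *Nr4a1* (1.14), *Nr4a3* and *Klf13* (0.67) were past 1.5-fold there. *Klf2* was then at -0.56, *Klf4* at -0.39 and *Nr4a2* at 0.35, while *Nr4a3* and *Klf6* turned to -0.62 and 0.09. With the gates read from counts thinned to 800 UMIs per cell, the 5 genes past 1.5-fold were those of the full counts in each library, with *Klf4* at -1.25 in CD and -1.41 in HFD.

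Cells that met both gates (123 in CD and 54 in HFD) had *Klf2* and *Klf4* levels between the ends, and NR4A levels near or above those of the Lyz1-high cells, other than *Nr4a3* in HFD, which rested on 19 UMIs. In CD they were at 866 CPM of *Nr4a1*, 207 of *Nr4a2*, 77.7 of *Nr4a3*, 1465 of *Klf2* and 718 CPM of *Klf4*. In HFD they were at 865 CPM of *Nr4a1*, 188 of *Nr4a2*, 41.5 of *Nr4a3*, 1553 of *Klf2* and 574 CPM of *Klf4*. Such barcodes had medians of 8692 and 8566 UMIs, above either end, and the part of doublets in them was not tested. Cells that met neither gate lay between the ends for these genes in CD, at 685 CPM of *Nr4a1*, 104 of *Nr4a2*, 2101 of *Klf2* and 901 CPM of *Klf4*.

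Within the classes, differences past 1.5-fold between HFD and CD were seen in Timd4+ and Plac8+ cells, the classes with the fewest HFD cells. In Timd4+ cells, 3 of the 7 genes with at least 100 UMIs were past it, among 19.0% of the 2460 genes compared. *Klf4* fell from 1186 CPM in CD (1135 to 1240) to 681 CPM in HFD (588 to 785), a log2 ratio of -0.80 (-1.02 to -0.59). *Nr4a2* was at 80.3 and 125 CPM (0.64, 0.06 to 1.18, from 35 HFD UMIs), and *Klf13* at 123 and 189 CPM (0.63, 0.16 to 1.07, from 53 HFD UMIs). *Nr4a3* had under 100 UMIs there, with 34.5 CPM in CD and 74.9 CPM in HFD, and 1 cell held 10 of its 21 HFD UMIs.

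The Timd4+ cells of the libraries also differed in *Lyve1*, which 286 of 368 had in CD and 28 of 72 in HFD. *Klf4* was lower in HFD on either side of this split, at 1255 and 844 CPM in Timd4+Lyve1+ cells (log2 ratio -0.57, -0.89 to -0.27) and at 932 and 577 CPM in Timd4+Lyve1- cells (-0.69, -1.03 to -0.36). *Klf13* was at 118 and 233 CPM in Timd4+Lyve1- cells (0.98, 0.32 to 1.64, from 42 and 40 UMIs), and in the Timd4+Lyve1+ cells it was at 124 and 119 CPM. *Gata6*, the factor of peritoneal macrophages, was seen in 1 CD and 2 HFD Timd4+ cells. Without cells of other types or of both gates, the ratios of *Nr4a2* and *Klf13* in Timd4+ cells were 0.42 and 0.41, under 1.5-fold, and that of *Klf4* was -0.60. By the mean of per-cell CPM no gene was past 1.5-fold, with *Klf4* at -0.56. The summed level of the macrophage list in Timd4+ cells was also lower in HFD, at 16590 CPM in CD and 11925 CPM in HFD, and its part in the ratio of *Klf4* was not tested.

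In Lyve1+ cells no gene was past 1.5-fold, beside 11.6% of the 6073 genes compared. *Nr4a1* was at 593 and 791 CPM (log2 ratio 0.41, 0.31 to 0.51), *Nr4a2* at 87.7 and 123 CPM (0.48, 0.22 to 0.74) and *Klf6* at 1206 and 1475 CPM (0.29, 0.22 to 0.36). *Klf4*, at 1179 and 1107 CPM, had a ratio of -0.09 (-0.17 to -0.01). In Folr2+Lyve1- cells the count was 0 of 8, beside 9.37% of 6075 genes, and the KLF genes were all above 0, from 0.11 for *Klf4* to 0.40 for *Klf3*. A list of 5 stromal genes summed to 130 CPM in the Folr2+Lyve1- cells of CD and 3.20 CPM in those of HFD. Without cells of other types or of both gates the KLF ratios were still above 0, from 0.19 for *Klf2* and 0.20 for *Klf4* to 0.46 for *Klf3*. Among cells with at least 1000 genes, *Klf4* turned to -0.11, and with at least 2 UMIs for the gate to -0.02. In Ccr2+ cells it was 0 of 8, beside 9.79% of 7867 genes, with *Klf4* at 726 and 619 CPM (-0.23, -0.29 to -0.17) and *Klf13* at 118 and 155 CPM (0.40, 0.27 to 0.53).

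Lyz1-high cells had 0 of 8 genes past 1.5-fold, beside 7.66% of 6460 genes. *Nr4a2* there was lower in HFD, at 216 and 185 CPM (-0.22, -0.35 to -0.09), against its ratio of 0.48 in Lyve1+ cells. In Plac8+ cells, 1 of the 6 genes with at least 100 UMIs was past 1.5-fold, beside 11.1% of 870 genes. This was *Nr4a1*, at 579 CPM (492 to 676) in 42 CD cells and 951 CPM (858 to 1053) in 73 HFD cells. The CD Plac8+ cells also held 544 UMIs of the stromal list, 1992 CPM, against 2 UMIs in HFD, and without cells of other types or of both gates the ratio of *Nr4a1* fell from 0.72 to 0.37. With at least 2 *Plac8* UMIs it was 0.56. A list of 5 dendritic cell genes summed to 14 UMIs (51.3 CPM) in the CD and 58 UMIs (147 CPM) in the HFD Plac8+ cells, and its part in the ratio was not tested.

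**Figure D3:**
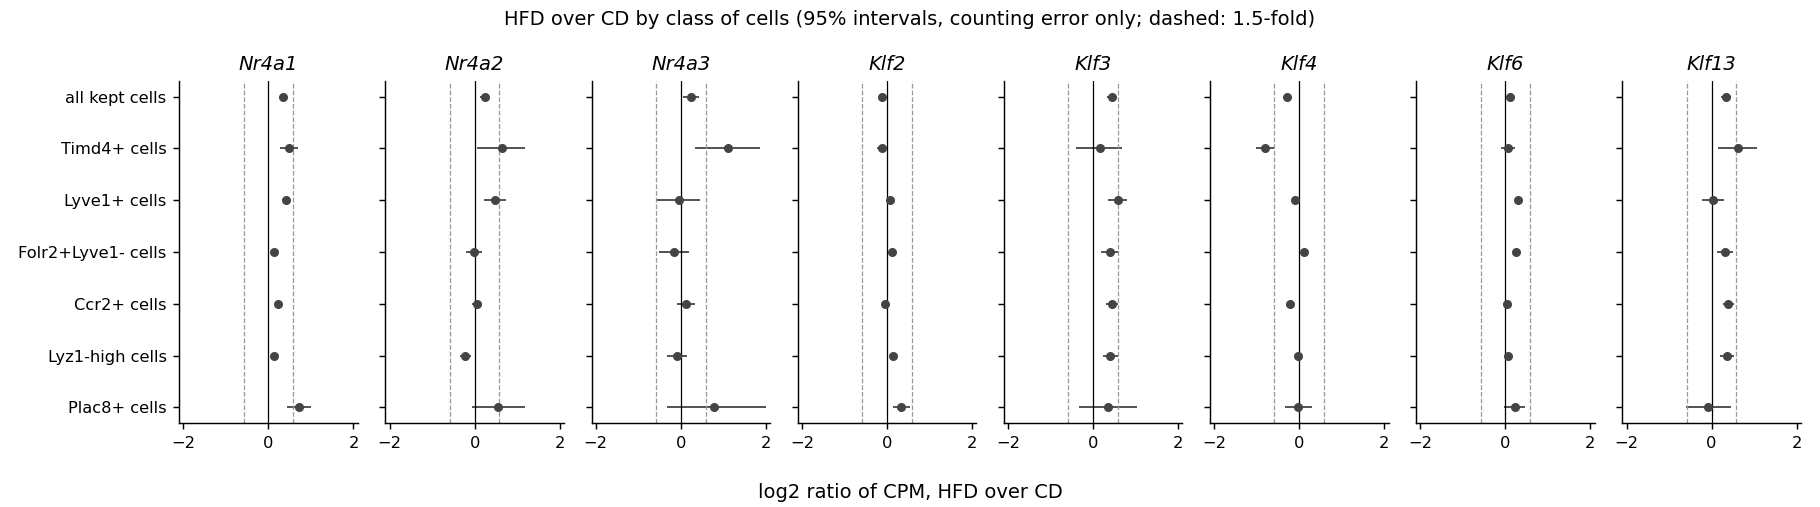
Log2 ratio of CPM in HFD over CD (horizontal axes) for the 8 genes in all kept cells and in the 6 overlapping classes (rows); bars are 95% intervals for counting error only, solid lines mark 0 and dashed lines 1.5-fold. *Nr4a1* lies right of 0 in every row, from 0.12 to 0.72, and *Klf4* in Timd4+ cells lies furthest left, at -0.80.

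The other genes of the KLF and SP families gave a count of 1 of 9 past 1.5-fold in all kept cells, among 16 listed, with a median log2 ratio of -0.12, a share near the 10.9% of all genes. This was *Klf10*, a factor induced by TGF-beta, which fell from 87.3 to 47.7 CPM (-0.87, -1.04 to -0.70). It was also lower in Lyve1+ cells (99.8 and 62.4 CPM) and in Lyz1-high cells (69.3 and 37.0 CPM). The other 8 lay within -0.44 for *Klf9* and 0.29 for *Sp3*, with *Klf7* at -0.21, *Sp2* at -0.16, *Klf11* at -0.12, *Klf16* at -0.01, *Sp4* at 0.09 and *Sp1* at 0.24. Between Lyz1-high and Lyve1+ cells, 4 of 8 were past 1.5-fold in CD, all lower in Lyz1-high cells: *Klf7* (-0.74), *Klf9* (-0.63), *Klf10* (-0.66) and *Klf11* (-2.03). In HFD 5 of 5 were lower. Over all genes compared, 36.8% in CD and 37.2% in HFD were past 1.5-fold in either direction. *Klf5*, the gut and muscle factor, had 1 UMI in HFD and 0 in CD, and *Klf14* and *Klf17* had 0 in both.

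Of 10 upstream factors and partners, 1 was past 1.5-fold in all kept cells, a share near the 10.9% of all genes, with a median log2 ratio of -0.02. This was *Mef2c*, which fell from 200 CPM to 96.8 CPM (-1.04, -1.16 to -0.93). MEF2 factors bind the MEF2 box and drive *Klf2* and *Nr4a1* in other cells. *Mef2c* was lower in HFD within Lyve1+ cells (273 and 166 CPM) and Lyz1-high cells (81.5 and 39.2 CPM) too. The diet ratio of *Klf2* was 0.07 and 0.14 in these classes and -0.11 in all kept cells. At the Lyz1-high end of CD *Mef2c* was at 68.2 CPM, against 310 CPM in Lyve1+ cells (-2.19, -2.39 to -1.99). This was the direction of *Klf2* and *Klf4*, and the opposite of *Nr4a1* (0.60). The part of *Mef2c* in the levels of these genes was not tested. *Crem*, which codes CRE-binding proteins, was higher at the Lyz1-high end. It was at 38.6 and 29.4 CPM in CD (0.39, 0.04 to 0.75), under 1.5-fold, and at 43.0 and 26.1 CPM in HFD (0.72, 0.10 to 1.40). The part of *Crem* in the levels of the NR4A genes was not tested. The NR4A partner *Rxra* was lower at the Lyz1-high end of CD (-1.13, -1.60 to -0.68), and the EGR corepressors *Nab1* and *Nab2* were at 0.22 and 0.34. Of the 10, 3 were above 0 at this end of CD and 7 below, the CRE-binding factor *Creb1* among the latter.

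Immediate early genes also rise while tissue is digested, so the list was read beside the NR4A genes. None of 14 was past 1.5-fold between diets in all kept cells, beside 10.9% of all genes compared. Their median log2 ratio was -0.0048, with summed levels of 22867 CPM in CD and 23152 CPM in HFD. Of the 14, 7 were above 0 and 7 below. *Fos* was at 4729 and 4390 CPM and *Egr1* at 1882 and 1510 CPM. *Jund* was at 2288 and 2817 CPM (0.30), beside 0.33 for *Nr4a1*. Within classes, 10 of the 14 were above 0 in Lyve1+ cells (median 0.09) and 12 in Folr2+Lyve1- cells (0.19), but 5 in Timd4+ cells (-0.09). The part of tissue digestion in the ratio of *Nr4a1* was not tested. Between classes the list went against the NR4A genes: 8 of 14 were past 1.5-fold in CD and 10 of 14 in HFD, all lower in Lyz1-high cells, beside 25.3% and 23.4% of all genes compared that were lower by as much. The medians of the list were -0.64 and -0.71, against -0.17 and -0.12 over all genes. *Klf2*, *Klf4* and *Klf6* went the way of the list, at -1.08, -1.33 and -0.45 in CD and -1.07, -1.32 and -0.75 in HFD. *Klf3* was at -0.08 and -0.39, and *Klf13* at -0.02 and 0.43. The part of tissue digestion in the ratios between classes was not tested. *Jun* was at 512 CPM in Lyz1-high and 1961 CPM in Lyve1+ cells of CD, and *Ier3* at 161 and 779 CPM. Of the list, *Egr3* and *Btg2* were above 0 in CD, at 0.41 and 0.15.

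Of 7 heat shock genes, 2 were past 1.5-fold and higher in HFD, beside 3.80% of all genes compared that were higher by as much. In all kept cells these were *Hspa1a* (361 and 591 CPM) and *Hspa1b* (45.8 and 128 CPM). In Lyve1+ cells their log2 ratios were 1.04 and 1.75. Heat shock genes answer stress of the tissue and of its handling, and their part in the difference of *Nr4a1* between the libraries was not tested. Endothelium expresses *Klf2* and *Klf4* highly. Its 6 markers summed to 14 CPM in CD and 9.65 CPM in HFD, with *Tie1* and *Emcn* at 0 in HFD. Over the classes of both libraries they summed to 3.78 to 25.6 CPM. The part of endothelial cells in the levels of *Klf2* and *Klf4* was not tested.

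The mt- share of a cell went with *Klf2*, *Klf4* and *Klf6* in both libraries. From cells with 0 to 2% to cells with 6 to 10% of mt- UMIs, *Klf4* rose from 515 to 1419 CPM in CD (log2 ratio 1.46, 1.35 to 1.57) and from 533 to 1475 CPM in HFD (1.47, 1.36 to 1.58). *Klf2* went from 1531 to 2574 CPM and from 1603 to 2981 CPM, and *Klf6* from 838 to 1544 CPM and from 901 to 2180 CPM. *Nr4a3* went the other way, from 57.9 to 34.2 CPM in CD and from 61.6 to 39.1 CPM in HFD. *Nr4a1* rose in HFD, from 756 to 1158 CPM (0.62, 0.50 to 0.73), and less in CD, from 675 to 751 CPM (0.15, 0.04 to 0.27). The log2 ratio of *Nr4a1* in HFD over CD was thus 0.16 (0.06 to 0.26) in cells with up to 2%, 0.63 (0.52 to 0.75) in cells with 4 to 6% and 0.62 (0.50 to 0.75) in cells with 6 to 10% of mt- UMIs. The mt- bins were not matched for class. In CD the median mt- share was 5.0% in Lyve1+ cells with under 10 *Lyz1* UMIs and 2.48% in Lyz1-high cells without *Lyve1*. *Klf4* was at 1295 and 515 CPM in these cells. The part of class shares in the trends with mt- share was not tested.

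**Figure D4:**
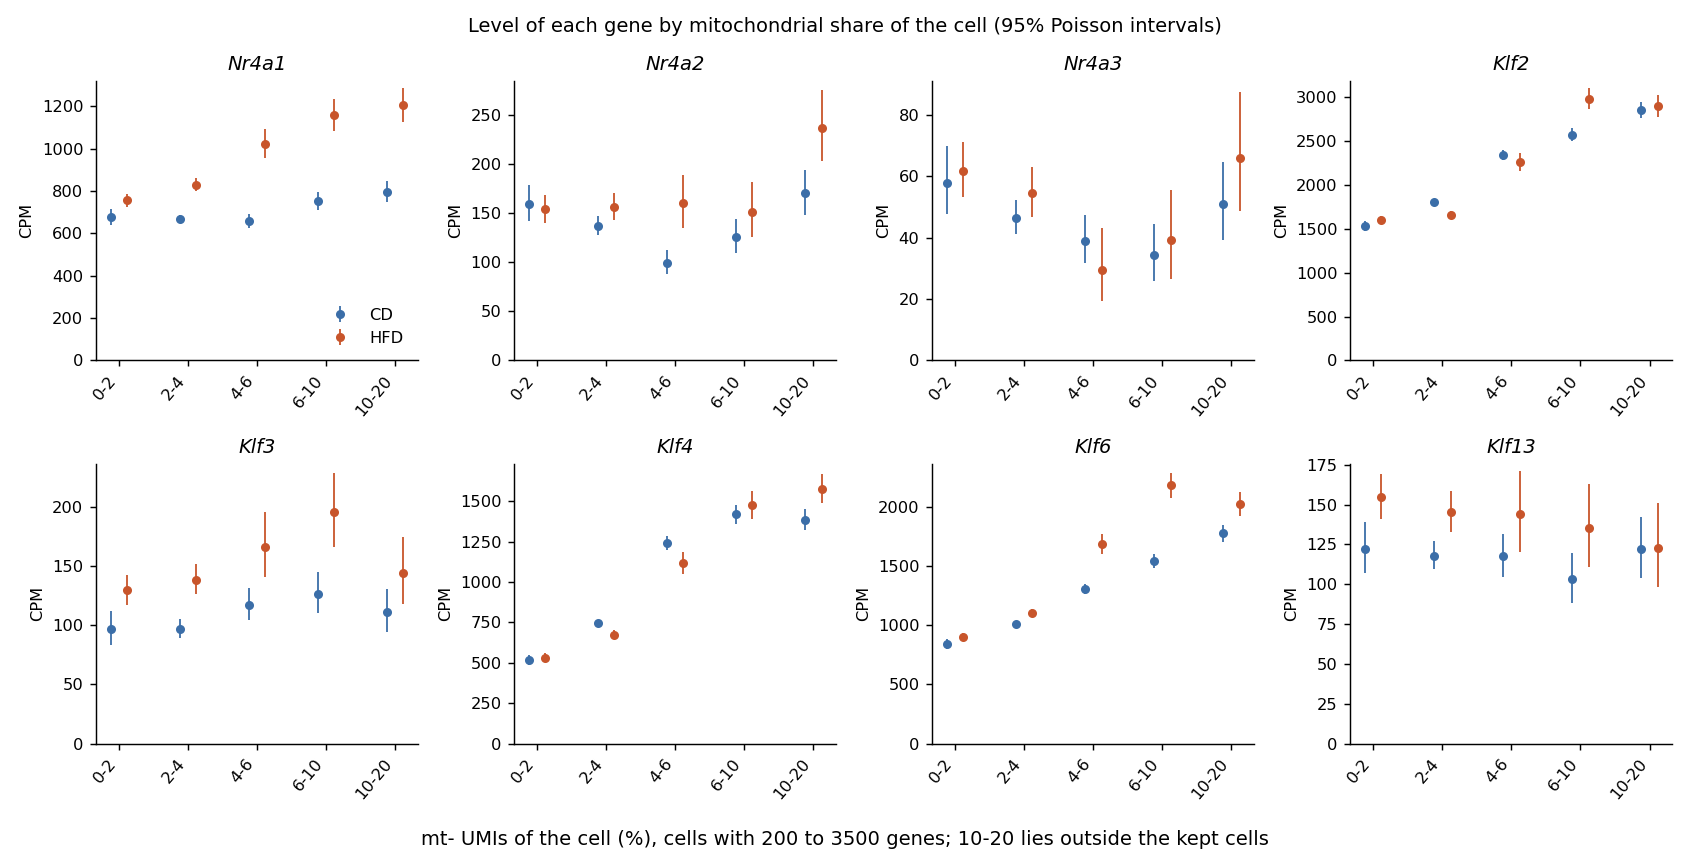
Levels in CPM (vertical axes, from 0) of the 8 genes by the share of mt- UMIs of the cell (horizontal axes, %), CD in blue and HFD in orange, in cells with 200 to 3500 genes; bars are 95% Poisson intervals, and the bin of 10 to 20% lies outside the kept cells. *Klf4* rose from 515 to 1419 CPM in CD up to 10%, while *Nr4a1* stayed at 658 to 751 CPM in CD and rose from 756 to 1158 CPM in HFD.

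*Klf4* was also higher in cells with few genes. In 4 bins from the fewest genes (under 1000) to the most (2000 to 3500), *Klf4* was at 1585, 1388, 1034 and 612 CPM in CD, and at 1487, 1041, 663 and 479 CPM in HFD. *Nr4a2* fell and then rose along these bins in CD, at 120, 80.9, 117 and 157 CPM, and *Klf13* was level, at 110 to 130 CPM. At matched gene numbers *Klf4* was lower in HFD from 1000 genes up, with log2 ratios of -0.41, -0.64 and -0.35, and below 1000 genes its ratio was -0.09 (-0.21 to 0.03). *Nr4a1* was higher in HFD in all 4 bins, with ratios of 0.33, 0.38, 0.53 and 0.11 from the fewest genes to the most. The bins were not matched for class, and Lyve1+ cells were 49.6% of kept cells in CD and 20.5% in HFD. The *Klf4* ratio was -0.06 with CD shares of the classes. It was 0.08 in Lyve1+ cells with under 10 *Lyz1* UMIs and 0.09 in Lyz1-high cells without *Lyve1*. The part of class shares in the ratios of the bins was not tested.

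The UMIs of *Nr4a2* and *Nr4a3* sat in few cells. The 10% of cells with the most UMIs of a gene held 64.3% of the *Nr4a2* UMIs in CD and 63.0% in HFD, and 77.9% and 90.9% of those of *Nr4a3*. For *Nr4a1* the share was 37.0% and 36.5%, and for *Klf2*, *Klf4* and *Klf6* 27.8 to 35.6%. A low count by itself concentrates UMIs in few cells, and *Klf3* and *Klf13*, with fewer UMIs than *Nr4a2* in both libraries, gave 43.9 to 47.9%.

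In cells thinned to 800 UMIs, *Klf2* and *Klf6* rose with the *Klf4* count of the cell. *Klf2* was at 1853 CPM in CD cells with 0 UMIs of *Klf4*, 2410 with 1 and 3071 CPM with 2 or more, and at 1697, 2404 and 3676 CPM in HFD. *Nr4a2* fell along the same bins, from 145 to 87.6 and 61.8 CPM in CD and from 161 to 132 and 84.0 CPM in HFD. By the *Nr4a1* count, *Nr4a2* was at 87.0, 150 and 141 CPM in CD and 102, 168 and 194 CPM in HFD. *Klf4* hardly moved along the *Nr4a1* bins in CD, at 1172, 1190 and 1129 CPM, and in HFD it was at 970, 1014 and 1137 CPM. The cells with 2 or more *Klf4* UMIs were the shallower before thinning, with medians of 3482 UMIs in CD and 1853 in HFD, against 5235 and 3978 in cells without. Over these cells, Pearson r with *Klf4* was 0.24 in CD and 0.32 in HFD for *Klf2*, and 0.12 and 0.18 for *Klf6*. For *Nr4a2* it was -0.09 and -0.06 with *Klf4*, and 0.06 and 0.07 with *Nr4a1*. The bins were not matched for class, and the part of class shares in these trends was not tested.

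Over the 12 points of 6 classes by 2 libraries, the genes with levels most like *Nr4a1* among 4313 genes with at least 500 UMIs were *Pik3r5*, *Ybx3* and *Spcs3*, with Pearson r of 0.97, 0.96 and 0.93 of log2(CPM + 1). *Nr4a2* had an r of 0.80 with *Nr4a1* and *Nr4a3* of 0.72. Most like *Klf4* were *Wsb1*, *Sgpp1* and *Ints6l*, at 0.97, 0.96 and 0.96, with *Klf2* at 0.90, *Klf6* at 0.77 and *Nr4a2* at -0.79. The points share cells, libraries and depth, so these are descriptions.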

How the data were processed

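ATMs of 3 pooled mice per diet gave 1 library each, CD and HFD. The values the authors deposited are raw UMI counts, a table for each library, for which the submitters' processing notes name Cell Ranger 3.0.2 and mm10. Reads were not processed again. The tools were matplotlib 3.10.9, pandas 2.3.3, numpy 2.4.6 and scipy 1.17.1 under Python 3.11.15. Cells with 200 to 3500 genes and at most 10% mt- UMIs were kept, and counts were summed over cells to CPM. Intervals are exact, at 95%, for counting error only, and so describe these libraries and not mice. With 1 library per diet no p-value was computed. A call is a ratio of at least 1.5-fold with at least 100 UMIs in the 2 groups. Classes needed 1 UMI of the gate gene, or 10 of *Lyz1*, so deeper cells entered them more readily. Doublets were not called beyond the limit on genes.

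The genes, lists and classes were chosen with earlier results of these data known. Named beside the 8 genes were those of fixed lists (KLF and SP genes with at least 100 UMIs, upstream factors, immediate early and heat shock genes, cell type markers) and the 3 genes most like *Nr4a1* and *Klf4*. The genes named from the lists with their class values were chosen after their values were seen. Alternatives changed the scaling, the weight of cells, the mt- limit, the gene limit, depth, other cell types, the gate and class shares. The script was tested on simulated counts. Promoters were those of RefSeq, matched by symbol for all 8 genes, and gene positions those of GENCODE for GRCm38.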

Additional observations from a re-analysis of the deposited data

Results flagged for a closer look

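For each of the 8 genes the log2 ratio of HFD over CD was compared between paired classes without shared cells. Lyz1-high cells without *Lyve1* were set against Lyve1+ cells with under 10 *Lyz1* UMIs. Folr2+Lyve1- cells were set against Lyve1+ cells, and Timd4+Lyve1- against Timd4+Lyve1+ cells. In 2 cases, neither from the Timd4+ pair, the signs were opposite with both counting intervals clear of 0. The share of all genes meeting this rule was not computed, so 2 cannot be called many or few. With 1 library per diet the difference was not tested. *Nr4a2* was lower in HFD in Lyz1-high cells without *Lyve1* (-0.24, -0.38 to -0.09) and higher in Lyve1+ cells with under 10 *Lyz1* UMIs (0.65, 0.27 to 1.01), a difference of -0.89 (-1.27 to -0.50). *Klf4* was higher in HFD in Folr2+Lyve1- cells (0.11, 0.03 to 0.19) and lower in Lyve1+ cells (-0.09, -0.17 to -0.01), a difference of 0.20 (0.09 to 0.32), and in Lyve1+ cells with under 10 *Lyz1* UMIs its ratio was 0.08 (-0.01 to 0.17). Both signs of *Klf4* turned under 2 of 11 alternatives, to -0.11 and -0.02 in Folr2+Lyve1- cells and to 0.10 and 0.14 in Lyve1+ cells.

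In barcodes with 10 to 20% mt- UMIs, which the comparisons leave out, *Nr4a1* was at 796 CPM in CD and 1204 CPM in HFD, a log2 ratio of 0.60 (0.47 to 0.73), past 1.5-fold like the kept cells with 4 to 10% and unlike all kept cells together. Above 20% it was 0.77 (0.58 to 0.95).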

How the results depend on the processing

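Of 103 counts of genes past 1.5-fold under 14 alternatives, 85 stayed within 1.5 times the reported count and 18 did not. With each cell thinned to 800 UMIs, the count was 1 instead of 0 in all kept cells (*Klf3*), 1 instead of 3 in Timd4+ cells, 2 instead of 0 in Lyve1+ cells, 1 instead of 0 in Lyz1-high cells, and 3 instead of 5 for Lyz1-high over Lyve1+ cells in CD. Genes with under 100 UMIs after thinning were not counted, whatever their ratio. *Nr4a3* was among these in CD, where its ratio of Lyz1-high over Lyve1+ cells lay within 1.34 to 2.08 over the 13 alternatives. By the mean of per-cell CPM the count was 0 in Timd4+ and 3 in Lyve1+ cells. Without cells of other types or of both gates it was 1 in Timd4+, 1 in Lyve1+ and 0 instead of 1 in Plac8+ cells. In Lyve1+ cells it was 1 at a limit of 5% mt- UMIs, 1 at 20%, and 1 without the barcodes found in both libraries. With at least 2 UMIs for the gate it was 1 instead of 0 in Folr2+Lyve1- and 0 in Plac8+ cells, and in Plac8+ cells it was 2 with at least 1000 genes per cell and 2 with genes of at least 20 UMIs. In cells with 2000 to 3500 genes, an alternative chosen after seeing the data, it was 3 instead of 5 for Lyz1-high over Lyve1+ cells in HFD, where *Nr4a3* reversed to -0.62 and *Klf6* to 0.091, on 20 Lyve1+ cells. The gates on thinned counts and the removal of shared barcodes were also chosen after seeing the data. Beyond what the alternatives themselves change, the causes were not tested. Of 823 single ratios, 54 had the opposite sign, 2 of them of genes past 1.5-fold. No paired analysis was possible because each diet had 1 library. Depth limits *Nr4a3* most.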
